A study of Homo sapiens with 9 samples.

Results

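A set of 46 genes for proteins that hepatocytes release into the blood or use in their own metabolism was followed in A549, a human lung adenocarcinoma cell line, in which AKR1B1 or SORD had been lowered. The symbols (12 plasma carriers, 13 genes of lipoproteins and lipid handling, 6 serpins, 4 inter-alpha-trypsin inhibitor heavy chains, 8 genes made up of enzymes and the RNA editing factor A1CF, and 3 hepatocyte surface receptors and transporters) were listed with earlier results of these data known, and the members described were selected on having counts. Each of the 46 matched 1 gene of the 57905 in the count table and had at least 1 count. The libraries came from A549 cells carrying an shRNA labelled shAKR1B1 (3 libraries), from cells carrying an shRNA labelled shSORD (3 libraries) and from control cells titled plko, whose treatment is labelled as scrambled (3 libraries). AKR1B1 is aldose reductase and SORD is sorbitol dehydrogenase, the enzymes of the polyol pathway that turns glucose into sorbitol and then fructose. The labels name 1 shRNA per target, so an effect of lowering the target and an effect of that hairpin cannot be told apart. The design text calls the libraries biological replicates. Whether each came from its own transduction is not stated, and the p-values measure only the spread between these libraries. Total counts ran between 32436524 and 43044456 per library.

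As background, the hepatocyte makes most of the proteins of blood plasma: albumin and other carriers, apolipoproteins, protease inhibitors of the serpin family and the heavy chains of the inter-alpha-trypsin inhibitor. It also breaks down tyrosine, conjugates bile acids and clears ageing glycoproteins through the asialoglycoprotein receptor. Many of these genes are switched on in the liver by the nuclear receptor HNF4A and by FOXA factors. Some of them are active in other epithelia, and A549 cells have been known to make a few of their products.

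The promoters below belong to a pair of carriers described further on. AHSG, which rose in both knockdowns, is shown for the 1 letter match to an HNF4 motif found among the listed genes. HNF4A transcripts also rose in both, and a link between HNF4A and AHSG was not tested. RBP4, which rose with shAKR1B1, is shown for its TATA letters close to the start. Windows covered 300 bases (250 before and 50 after the start) and came from RefSeq on GRCh38.p14. The bases before the start are printed 5′ to 3′ on the gene's own strand, with the motif in capitals.
AHSG: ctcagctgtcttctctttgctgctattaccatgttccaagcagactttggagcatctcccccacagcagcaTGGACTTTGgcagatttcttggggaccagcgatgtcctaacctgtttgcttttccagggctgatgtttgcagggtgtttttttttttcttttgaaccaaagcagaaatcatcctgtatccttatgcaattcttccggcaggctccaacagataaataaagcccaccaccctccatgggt
RBP4: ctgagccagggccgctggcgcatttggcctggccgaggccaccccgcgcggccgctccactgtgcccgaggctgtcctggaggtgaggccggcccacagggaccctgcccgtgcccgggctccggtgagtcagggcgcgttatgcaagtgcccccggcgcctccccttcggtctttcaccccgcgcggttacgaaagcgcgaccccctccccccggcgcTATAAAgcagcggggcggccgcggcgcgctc
These stretches lie at chr3:186612810-186613059 on the plus strand for AHSG and at chr10:93601236-93601485 on the minus strand for RBP4. The HNF4 letters searched were CAAAGTCCA, and AHSG held them on the opposite strand, as TGGACTTTG, 179 to 171 bases before its start. The TATA letters were TATAAA, and RBP4 held them 31 to 26 bases before this start. All motifs were searched on both strands, and none of the letter strings contains another. The 33 listed genes with a window had 45 windows in all, and 1 of the 45 held the HNF4 letters, against 0.384% of all 35116 promoter windows. The TATA letters occurred in 11 of the 45 windows, those of A1CF, AFP, BAAT, FABP1, FETUB, MTTP, ORM1, RBP4 and TDO2, against 11.5% of all windows. The FOXA letters TGTTTAC occurred in 1 of the 45, that of APOA2, against 3.42% of all windows, and the C/EBP letters TTGCGCAA in 0 of the 45, against 0.151%. A letter match describes the sequence and does not show a bound site.

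Each target was lowest in its own knockdown. AKR1B1 averaged 153.8 ± 11.7 CPM in shAKR1B1 libraries, 1063 ± 103 CPM in shSORD libraries and 1416 ± 34.7 CPM in control libraries (SD, n = 3 each), where CPM is the count scaled to a common library size after TMM scaling. SORD averaged 8.62 ± 0.414 CPM in shSORD libraries, 30.6 ± 0.411 CPM in shAKR1B1 libraries and 42.9 ± 1.19 CPM in control libraries (SD, n = 3 each). Each hairpin's libraries thus also had less of the other transcript than control libraries (edgeR quasi-likelihood adjusted p = 1.31e-04 for AKR1B1 with shSORD and 6.43e-06 for SORD with shAKR1B1). The first principal component of all genes held 59.2% of the variance and separated both knockdowns from control. No library stood apart from its group on the first pair of components. The chi-square per gene between replicates was 3.361 to 6.33 within shAKR1B1, 12.83 to 26.88 within shSORD and 2.365 to 5.723 within control. The shSORD replicates thus differed most from each other, while the fit shares its estimate of spread over the 3 groups.

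The listed genes ranged in these cells between abundant and nearly silent, and several that mark the liver most closely were nearly silent. In every library APOA1, APOB, SERPINC1 and MTTP had at most 10 counts, and HP, APOA2, APOC3, SERPIND1, ITIH1, ITIH3 and SLC10A1 had at most 3. Of 14 further hepatocyte markers, 9 reached more than 3 counts in a library, while ARG1 and CYP8B1 were at 0 in all 9 libraries. The summed level of these 14 was 328.4 to 342.0 CPM in shAKR1B1 libraries, 271.4 to 300.4 CPM in shSORD libraries and 441.1 to 441.9 CPM in control libraries. Most of it was CPS1, the first enzyme of the urea cycle, at 253.7 ± 9.75 CPM in shAKR1B1 libraries, 230.2 ± 17.7 CPM in shSORD libraries and 417.3 ± 0.564 CPM in control libraries (SD, n = 3 each). Of the 7 that were tested, 5 rose and 1 fell with shAKR1B1, and 4 rose and 2 fell with shSORD. Over all tested genes 27.8% rose and 29.6% fell with shAKR1B1, and 27.5% rose and 29.0% fell with shSORD. The label liver secretory and metabolic genes therefore describes the list, not the state of the cells, in which 27 of the 46 passed the filter on low counts, 12 stayed below it with more than 3 counts in some library, and 7 never exceeded 3 counts. For 8 of the 27, fewer than 3 control libraries reached the filter of 0.254 CPM. Of these, ALB, AHSG, HPX, LIPC, HNMT, TAT and ASGR2 could be tested because knockdown libraries reached it, and FETUB reached it in 2 shSORD libraries and 1 control library. Counts over the 27 are therefore a description and support nothing about the list.

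Most of the tested liver genes were higher in knockdown cells, and none was called lower than in control. With shAKR1B1, 22 of 27 rose and 0 fell (adjusted p under 0.05, edgeR quasi-likelihood test with Benjamini-Hochberg adjustment over 16916 genes), against 27.8% higher and 29.6% lower among all genes tested. With shSORD, 19 of 27 rose and 0 fell, against 27.5% higher and 29.0% lower among all genes tested. By DESeq2 the counts were the same, 22 and 19 higher and 0 lower. Among all genes DESeq2 called 4578 higher and 4678 lower with shAKR1B1, and 4459 higher and 4632 lower with shSORD. At an unadjusted p under 0.05, 1 gene was lower with shAKR1B1 (TDO2) and 0 were lower with shSORD. The rise reached at least 2-fold for 17 genes with shAKR1B1 and for 10 with shSORD. The share of all tested genes that reached 2-fold was not counted, so these counts are a description only. The median log2 fold change of the 27 was 1.5 with shAKR1B1 and 0.93 with shSORD, beside medians over all tested genes within 0.01 of 0. The 2 comparisons share the same 3 control libraries. In bulk RNA, more cells making a transcript and more transcript per cell cannot be told apart.

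**Figure D1:**
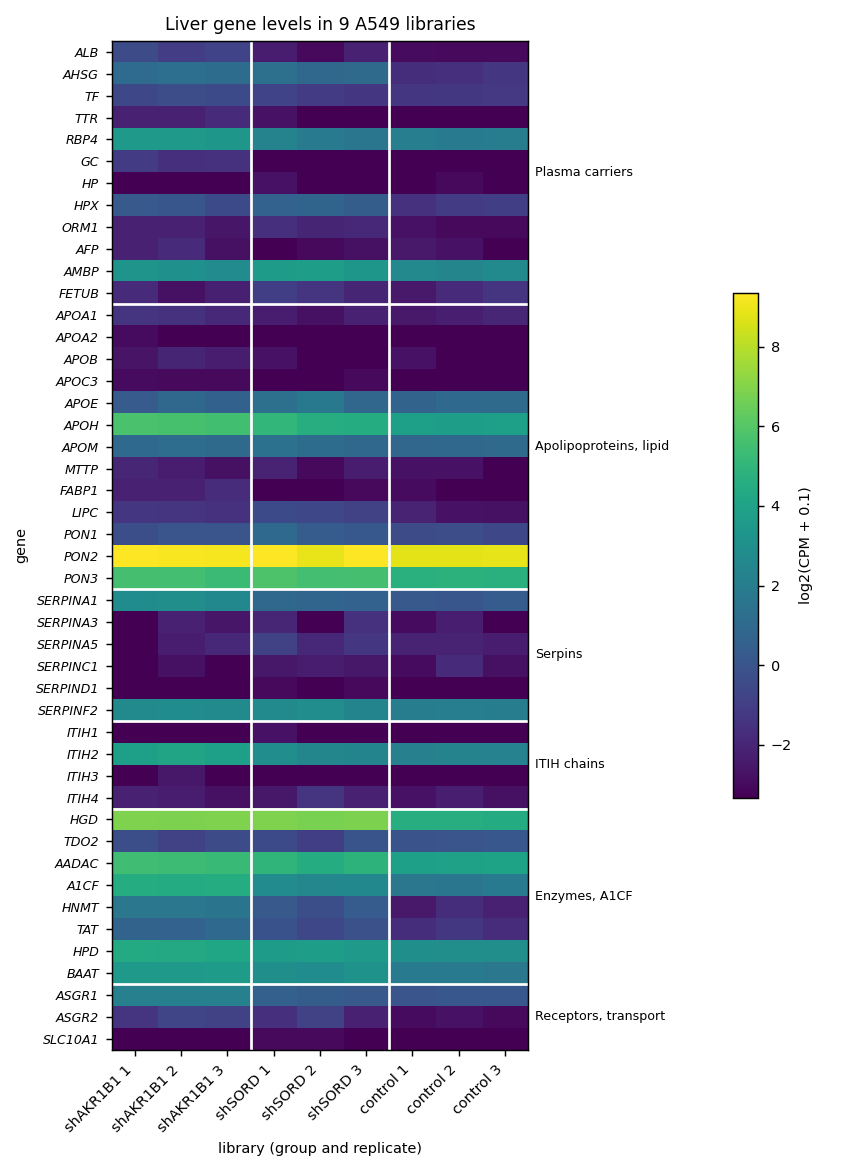
Heat map of the 46 liver genes (rows, ordered by role) in the 9 A549 libraries (columns, shAKR1B1, shSORD and control, 3 each), coloured by log2(CPM + 0.1). PON2 is the brightest row at 453.9 to 649.6 CPM, HGD and A1CF brighten in knockdown columns, and rows such as HP, APOA2 and SLC10A1 stay at the dark end throughout.

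The summed level of the 46 genes was 939.6 to 1028 CPM in shAKR1B1 libraries, 756.4 to 951.1 CPM in shSORD libraries and 575.9 to 586.5 CPM in control libraries. PON2 alone gave most of it. Without PON2 the sums were 357.3 to 387.3 CPM in shAKR1B1 libraries, 277.3 to 318.8 CPM in shSORD libraries and 119.4 to 122.5 CPM in control libraries, and the 3 groups did not overlap. Per kilobase of annotated exon, the control levels ran in the order PON2 (119.3 CPM per kb), APOH (10.5), AADAC (9.05), HGD (7.73), PON3 (6.601), HPD (3.41), AMBP (2.91), RBP4 (2.71), SERPINF2 (1.70) and ITIH2 (1.40). On the same scale ALB stood far below these, and in shAKR1B1 cells HGD (39.5 CPM per kb) and APOH (37.0) followed PON2 (157.9). Other shares moved alongside the sums. Mitochondrially encoded protein genes took 5.92 to 6.10% of counts in shAKR1B1 libraries, 5.55 to 5.97% in shSORD libraries and 4.85 to 5.61% in control libraries, and the 10 most abundant genes took 10.1 to 10.2%, 9.58 to 9.82% and 8.01 to 8.73% in the same order of groups. The summed level of 7 genes typical of A549 cells was 34630 to 35670 CPM in shAKR1B1 libraries, 28750 to 29960 CPM in shSORD libraries and 25440 to 25730 CPM in control libraries. The summed level of 5 fibroblast markers was 8.653 to 10.04 CPM in shAKR1B1 libraries, 33.4 to 50.3 CPM in shSORD libraries and 14.4 to 16.1 CPM in control libraries, with LUM and DCN at 0 in at least 1 library. The part of these shares in the gene results was not tested.

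Among the 12 plasma carriers, 7 could be tested, and 6 rose with shAKR1B1 and 3 with shSORD. Over all tested genes 27.8% rose with shAKR1B1 and 27.5% with shSORD. Counts for this and the following groups of members stand beside these shares as a description only. ALB (ENSG00000163631) encodes serum albumin, the most abundant protein of plasma. It had 22, 16 and 21 counts in shAKR1B1 libraries, 4, 1 and 5 counts in shSORD libraries and 1 count in each control library. The shAKR1B1 libraries lay above all others, while shSORD and control libraries overlapped. The summed counts gave a ratio of 19.1 for shAKR1B1 over control (95% counting interval 6.24 to 95.5, counting error only) and of 3.16 for shSORD over control (0.813 to 17.9). The fitted log2 fold change was 4.11 with shAKR1B1 (SE 0.558, adjusted p = 1.72e-05) and 1.55 with shSORD (SE 0.817, adjusted p = 0.12, and 0.0415 without shSORD replicate 2). Even after this rise albumin transcripts stayed at 0.519 ± 0.142 CPM in shAKR1B1 cells (SD, n = 3).

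AHSG (ENSG00000145192) encodes fetuin-A, a liver glycoprotein that keeps calcium phosphate in solution. It had 2.02, 2.37 and 2.16 CPM in shAKR1B1 libraries, 2.46, 1.75 and 1.98 CPM in shSORD libraries and 0.221, 0.239 and 0.305 CPM in control libraries. Every knockdown library stood far above every control library, and the knockdowns overlapped. The log2 fold change was 3.08 with shAKR1B1 (SE 0.229, adjusted p = 3.35e-08) and 2.99 with shSORD (SE 0.231, adjusted p = 6.76e-08). Its neighbour FETUB, which encodes fetuin-B, did not pass in either comparison, with 2 to 6 counts in shAKR1B1 libraries, 6 to 16 in shSORD libraries and 3 to 11 in control libraries.

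RBP4 encodes the plasma carrier of retinol. It had 11.2, 11.6 and 10.4 CPM in shAKR1B1 libraries, 4.92, 3.56 and 3.01 CPM in shSORD libraries and 4.14, 3.71 and 3.92 CPM in control libraries. Only the shAKR1B1 libraries stood apart, with a log2 fold change against control of 1.499 (SE 0.136, adjusted p = 2.76e-07). The value for shSORD was -0.04 (SE 0.149, adjusted p = 0.849), and its sign turned under 4 alternative settings.

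HPX, for the haem carrier hemopexin, and AMBP, for the precursor of alpha-1-microglobulin and bikunin, were higher in both knockdowns and highest with shSORD. HPX had 1.07, 0.962 and 0.626 CPM in shAKR1B1 libraries, 1.48, 1.58 and 1.25 CPM in shSORD libraries and 0.248, 0.371 and 0.407 CPM in control libraries. AMBP had 9.22, 8.12 and 6.77 CPM in shAKR1B1 libraries, 12.4, 13.3 and 10.3 CPM in shSORD libraries and 6.19, 5.33 and 6.29 CPM in control libraries. For both genes the 3 groups did not overlap. The log2 fold changes with shAKR1B1 were 1.34 for HPX (adjusted p = 9.47e-04) and 0.43 for AMBP (adjusted p = 9.75e-03). With shSORD they were 2.05 for HPX (adjusted p = 1.01e-05) and 1.02 for AMBP (adjusted p = 6.48e-06). The AMBP call with shAKR1B1 ended when control replicate 2 was left out (adjusted p = 0.0515) and when shAKR1B1 replicate 1 was left out (0.0568).

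The remaining carriers were scarce. TF, for transferrin, averaged 0.633 ± 0.0547 CPM in shAKR1B1 libraries, 0.386 ± 0.0972 CPM in shSORD libraries and 0.318 ± 0.0135 CPM in control libraries (SD, n = 3 each), and it rose with shAKR1B1 (log2 fold change 0.99, adjusted p = 5.72e-03). GC, the vitamin D binding protein, had 12, 9 and 11 counts in shAKR1B1 libraries and 0 in every shSORD and control library. With a floor of 3 counts per library, GC was at least 3.74-fold higher in shAKR1B1 than in shSORD libraries and at least 3.54-fold higher than in control libraries. TTR, the thyroxine carrier transthyretin, had 4, 5 and 8 counts in shAKR1B1 libraries, 2, 0 and 0 in shSORD libraries and 0 in every control library, which makes it at least 1.81-fold higher with shAKR1B1 than in control. Both stayed below the filter. In a fit with no filter their adjusted p with shAKR1B1 was 1.14e-06 for GC and 8.76e-04 for TTR. For AHSG and RBP4 with shAKR1B1, that fit gave a far smaller adjusted p than the main fit, and for TF a larger one. Its adjusted p-values, here and below, therefore cannot be set beside those of the main fit. For genes below the filter they are a description only. AFP, the fetal homologue and neighbour of ALB, had 2 to 8 counts in shAKR1B1 libraries, 0 to 2 in shSORD libraries and 0 to 3 in control libraries, which overlapped. ORM1, an acid glycoprotein with the near-identical copy ORM2, had 3 to 5, 6 to 9 and 1 to 2 counts in shAKR1B1, shSORD and control libraries. Its ratio of summed counts to control was 5.21 with shSORD (95% counting interval 1.77 to 20.8; adjusted p = 0.0138 with no filter) and 2.92 with shAKR1B1 (0.885 to 12.4; adjusted p = 0.229). HP, for haptoglobin, had at most 2 counts anywhere and shares sequence with HPR.

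**Figure D2:**
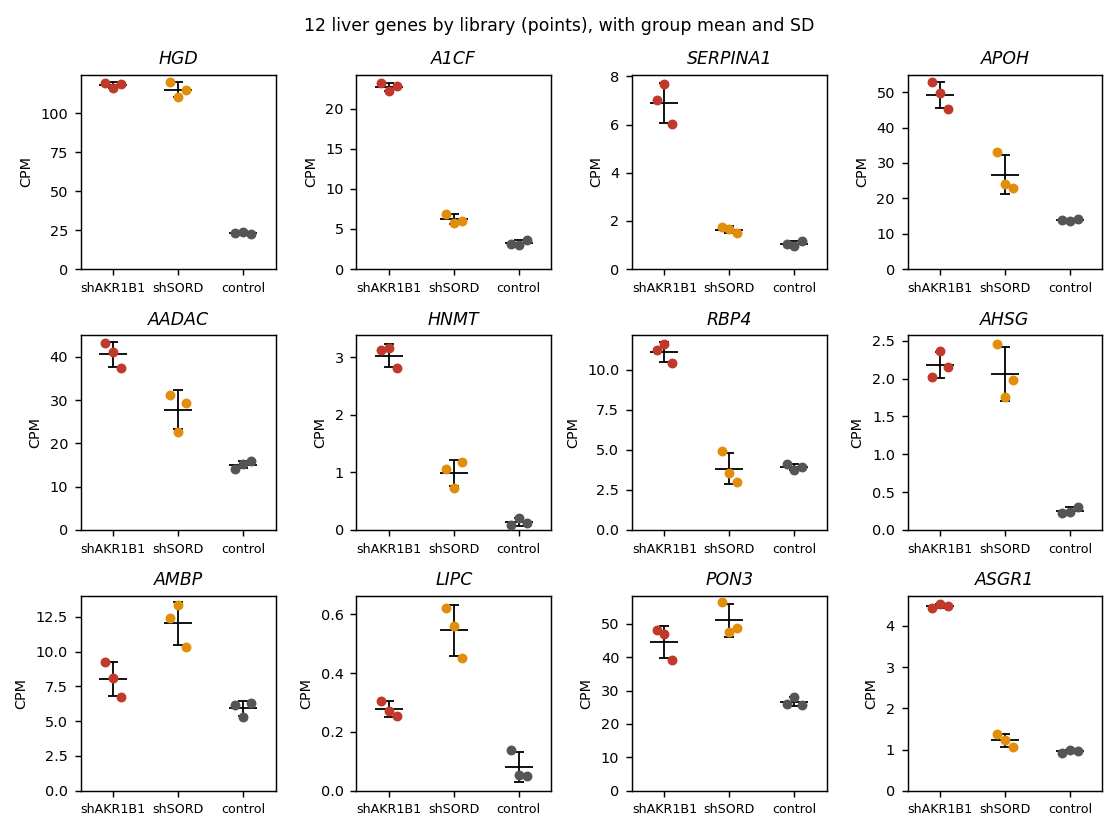
CPM of 12 liver genes in each library (points), with the group mean (horizontal bar) and SD (vertical bar), for shAKR1B1, shSORD and control cells (n = 3 each). HGD and AHSG overlapped between the knockdowns, far above control, A1CF, SERPINA1, RBP4 and ASGR1 stood apart with shAKR1B1, and AMBP and LIPC were highest with shSORD.

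Of the 13 genes of lipoproteins and lipid handling, 7 could be tested, and 4 rose with shAKR1B1 and 5 with shSORD. The shares over all tested genes were 27.8% and 27.5%. APOH encodes beta-2-glycoprotein I, a phospholipid-binding plasma protein. It had 52.8, 49.7 and 45.4 CPM in shAKR1B1 libraries, 33.0, 24.0 and 23.0 CPM in shSORD libraries and 14.0, 13.6 and 14.2 CPM in control libraries. The 3 groups did not overlap, with shAKR1B1 highest. The log2 fold change was 1.82 with shAKR1B1 (SE 0.114, adjusted p = 5.47e-09) and 0.94 with shSORD (SE 0.115, adjusted p = 7.53e-06).

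In the comparisons with control, the listed apolipoproteins that build lipoprotein particles were either not called or below the filter. Outside the list, APOC1 was lower in both knockdowns (edgeR adjusted p = 2.25e-07 with shAKR1B1 and 5.95e-04 with shSORD). It averaged 22.6 ± 2.38, 34.6 ± 5.10 and 48.1 ± 0.212 CPM in shAKR1B1, shSORD and control libraries (SD, n = 3 each). APOE averaged 1.47 ± 0.334 CPM in shAKR1B1 libraries, 2.54 ± 0.830 CPM in shSORD libraries and 1.80 ± 0.220 CPM in control libraries (SD, n = 3 each), and neither comparison with control passed (adjusted p = 0.334 and 0.0686). Without shSORD replicate 3 it was higher with shSORD (log2 fold change 0.73, adjusted p = 3.62e-03). APOM averaged 2.03 ± 0.168, 2.17 ± 0.447 and 1.82 ± 0.143 CPM in shAKR1B1, shSORD and control libraries (SD, n = 3 each) and did not pass either. APOB, the backbone of very low density lipoprotein, had 2 to 6 counts in shAKR1B1 libraries, 0 to 2 in shSORD libraries and 0 to 2 in control libraries, a ratio of summed counts of 5.84 for shAKR1B1 over control (95% counting interval 1.3 to 53.7; adjusted p = 0.111 in a fit with no filter). MTTP, the transfer protein that loads APOB with lipid, had at most 5 counts in any library. APOA1, of high density lipoprotein, had 9, 10 and 7 counts in shAKR1B1 libraries, 4, 2 and 5 in shSORD libraries and 3, 4 and 6 in control libraries, a ratio of 1.95 for shAKR1B1 over control (0.965 to 4.13; adjusted p = 0.243 with no filter). For APOB and APOA1 no shAKR1B1 library lay below a control library. The APOA1 exons overlap the antisense gene APOA1-AS. FABP1, the liver fatty acid binding protein, had 4, 5 and 9 counts in shAKR1B1 libraries, 0, 0 and 1 in shSORD libraries and 1, 0 and 0 in control libraries, a ratio of 17.5 over control (95% counting interval 2.77 to 730). Its adjusted p with shAKR1B1 in a fit with no filter was 4.84e-03.

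LIPC encodes hepatic lipase, which the liver sends to the vessel wall. It had 10, 11 and 11 counts in shAKR1B1 libraries, 24, 23 and 18 counts in shSORD libraries and 5, 2 and 2 counts in control libraries. The groups were ordered without overlap, shSORD highest. The ratio of summed counts to control was 3.46 with shAKR1B1 (95% counting interval 1.61 to 8.25) and 6.84 with shSORD (3.39 to 15.6), and both passed (adjusted p = 4.37e-03 and 3.87e-05).

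The paraoxonases, lactone-cleaving enzymes encoded by the neighbours PON1, PON3 and PON2, were all present. PON1 and PON3 travel on high density lipoprotein, whereas PON2 stays in the cell. PON2 had 640.3, 597.5 and 582.3 CPM in shAKR1B1 libraries, 632.3, 479.1 and 649.6 CPM in shSORD libraries and 456.5, 453.9 and 465.2 CPM in control libraries. Each knockdown library exceeded each control library, by a log2 fold change of 0.40 with shAKR1B1 (adjusted p = 1.05e-03) and 0.36 with shSORD (adjusted p = 2.75e-03). PON3 had 48.0, 46.8 and 39.1 CPM in shAKR1B1 libraries, 56.7, 47.6 and 48.9 CPM in shSORD libraries and 26.0, 28.2 and 25.8 CPM in control libraries. It too rose in both, by 0.74 with shAKR1B1 (adjusted p = 4.59e-06) and 0.94 with shSORD (adjusted p = 4.96e-07). PON1 had 0.735, 0.913 and 0.928 CPM in shAKR1B1 libraries, 1.94, 1.17 and 1.03 CPM in shSORD libraries and 0.635, 0.689 and 0.560 CPM in control libraries. It rose with shSORD (log2 fold change 1.13, adjusted p = 1.59e-03), while with shAKR1B1 its libraries lay above control without passing (0.46, adjusted p = 0.165).

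Both serpins that could be tested rose in both comparisons, where 27.8% of all tested genes rose with shAKR1B1 and 27.5% with shSORD. SERPINA1 (ENSG00000197249) encodes alpha-1-antitrypsin, the main plasma inhibitor of neutrophil elastase. It had 7.01, 7.67 and 6.01 CPM in shAKR1B1 libraries, 1.76, 1.68 and 1.48 CPM in shSORD libraries and 1.05, 0.955 and 1.17 CPM in control libraries. All 3 groups were separate, and shAKR1B1 cells stood far above the others. The log2 fold change was 2.70 with shAKR1B1 (SE 0.145, adjusted p = 1.05e-09) and 0.63 with shSORD (SE 0.172, adjusted p = 5.97e-03). SERPINF2, for the plasmin inhibitor alpha-2-antiplasmin, averaged 6.58 ± 0.326, 6.30 ± 1.04 and 3.998 ± 0.142 CPM in shAKR1B1, shSORD and control libraries (SD, n = 3 each). SERPINA3, SERPINA5, SERPINC1 and SERPIND1 had at most 17 counts in any library. SERPINA5, the protein C inhibitor, had 0, 4 and 7 counts in shAKR1B1 libraries, 17, 7 and 12 in shSORD libraries and 5, 5 and 4 in control libraries. Its ratio of summed counts to control was 2.44 with shSORD (95% counting interval 1.28 to 4.89; adjusted p = 0.0491 in a fit with no filter) and 0.765 with shAKR1B1 (0.314 to 1.81). SERPINC1, for antithrombin, had 0, 2 and 0 counts in shAKR1B1 libraries, 3, 4 and 3 in shSORD libraries and 1, 7 and 2 in control libraries. Its ratio was 0.195 for shAKR1B1 over control (0.0207 to 0.914) and 0.206 for shAKR1B1 over shSORD (0.0219 to 0.964), and neither passed with no filter (adjusted p = 0.128 and 0.22). Annotated exons of SERPINA3 overlap those of a gene on the same strand over 31.8% of their length, so its counts are uncertain.

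ITIH2, the one inter-alpha-trypsin inhibitor heavy chain above the filter, had 14.1, 16.7 and 14.2 CPM in shAKR1B1 libraries, 7.20, 5.58 and 5.12 CPM in shSORD libraries and 4.45, 5.01 and 4.76 CPM in control libraries. Heavy chains bind covalently to hyaluronan in the matrix and are carried in plasma by bikunin, the AMBP product. The shAKR1B1 libraries stood apart (log2 fold change 1.66, SE 0.12, adjusted p = 2.42e-08), and those of shSORD lay just above control (0.33, SE 0.128, adjusted p = 0.0397). That shSORD call was lost without shSORD replicate 1 (0.19, adjusted p = 0.202) or without any 1 of the control libraries (adjusted p = 0.0545 to 0.127). ITIH1, ITIH3 and ITIH4, which neighbour each other on another chromosome, had at most 11 counts in any library, and 73.6% of the ITIH4 exon length overlaps another gene.

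The 7 enzymes and A1CF all passed the filter, and 7 of these 8 genes rose in each comparison with control. Over all tested genes 27.8% rose with shAKR1B1 and 27.5% with shSORD. HNMT and TAT could be tested only because knockdown libraries reached the filter. HGD (ENSG00000113924) encodes homogentisate dioxygenase, which opens the ring of a tyrosine breakdown product. It had 119.1, 115.8 and 118.6 CPM in shAKR1B1 libraries, 119.8, 110.5 and 114.5 CPM in shSORD libraries and 23.3, 23.5 and 22.4 CPM in control libraries. Knockdown and control libraries were far apart, and the knockdowns overlapped. The log2 fold change was 2.35 with shAKR1B1 (SE 0.0565, adjusted p = 5.4e-13) and 2.32 with shSORD (SE 0.0565, adjusted p = 8.86e-13).

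Upstream of HGD in the same route stand TAT, tyrosine aminotransferase, and HPD, the dioxygenase that makes homogentisate. TAT had 1.56, 1.505 and 1.93 CPM in shAKR1B1 libraries, 0.803, 0.561 and 0.777 CPM in shSORD libraries and 0.221, 0.318 and 0.204 CPM in control libraries. HPD had 21.3, 19.9 and 17.7 CPM in shAKR1B1 libraries, 12.5, 13.1 and 11.2 CPM in shSORD libraries and 7.73, 7.50 and 7.48 CPM in control libraries. For both genes the groups were separate, shAKR1B1 highest and control lowest. TAT changed by 2.74 with shAKR1B1 (adjusted p = 3.28e-07) and 1.51 with shSORD (adjusted p = 4.38e-04) on the log2 scale, and its exons overlap the antisense gene TAT-AS1. HPD changed by 1.37 with shAKR1B1 (adjusted p = 7.46e-09) and 0.69 with shSORD (adjusted p = 1.35e-05). TDO2, tryptophan dioxygenase, averaged 0.610 ± 0.150 CPM in shAKR1B1 libraries, 0.638 ± 0.232 CPM in shSORD libraries and 0.917 ± 0.0563 CPM in control libraries (SD, n = 3 each). It did not pass (log2 fold change -0.60, adjusted p = 0.0705, and -0.53, adjusted p = 0.107), but passed as lower with shAKR1B1 when only the 2 groups compared entered the fit (adjusted p = 0.0345) or without shSORD replicate 2 or 3 (0.0396 and 0.0458). With shSORD it passed as lower without shSORD replicate 3 (-0.81, adjusted p = 0.0209).

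HNMT (ENSG00000150540) encodes histamine N-methyltransferase, which inactivates histamine inside cells. It had 102, 128 and 121 counts in shAKR1B1 libraries, 41, 30 and 47 counts in shSORD libraries and 3, 8 and 5 counts in control libraries. The groups were separate. The log2 fold change was 4.39 with shAKR1B1 (SE 0.27, adjusted p = 4.59e-09) and 2.78 with shSORD (SE 0.324, adjusted p = 4.47e-06).

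A1CF (ENSG00000148584), the RNA-binding partner of the enzyme that edits APOB transcripts, had 23.2, 22.2 and 22.8 CPM in shAKR1B1 libraries, 6.92, 5.75 and 6.02 CPM in shSORD libraries and 3.18, 3.00 and 3.61 CPM in control libraries. It rose by 2.80 with shAKR1B1 (SE 0.0957, adjusted p = 8.47e-12) and by 0.93 with shSORD (SE 0.104, adjusted p = 3e-06), although its substrate APOB was almost absent. AADAC, a lipase of the endoplasmic reticulum, had 43.2, 41.1 and 37.5 CPM in shAKR1B1 libraries, 31.1, 22.6 and 29.4 CPM in shSORD libraries and 14.2, 15.1 and 15.9 CPM in control libraries. BAAT, which joins bile acids to glycine or taurine, had 11.3, 11.1 and 12.2 CPM in shAKR1B1 libraries, 7.79, 6.95 and 9.05 CPM in shSORD libraries and 3.78, 3.63 and 3.10 CPM in control libraries. All 3 genes had separate groups in the same order, shAKR1B1 above shSORD above control. The log2 fold changes with shAKR1B1 were 1.43 for AADAC (adjusted p = 2.66e-08) and 1.72 for BAAT (adjusted p = 1.05e-08), and with shSORD 0.88 for AADAC (adjusted p = 5.51e-06) and 1.18 for BAAT (adjusted p = 8.94e-07).

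The asialoglycoprotein receptor binds plasma glycoproteins that have lost sialic acid, and its subunits come from the neighbours ASGR1 and ASGR2. ASGR1 had 4.44, 4.54 and 4.48 CPM in shAKR1B1 libraries, 1.37, 1.24 and 1.05 CPM in shSORD libraries and 0.911, 0.981 and 0.967 CPM in control libraries. It rose with shAKR1B1 (log2 fold change 2.23, SE 0.14, adjusted p = 5.4e-09), while with shSORD its libraries lay above control without passing (0.36, SE 0.166, adjusted p = 0.0819, and 0.0341 without shSORD replicate 3). ASGR2 had 9, 21 and 19 counts in shAKR1B1 libraries, 9, 19 and 5 counts in shSORD libraries and 1, 2 and 1 counts in control libraries. Its knockdown libraries were all above control, with ratios of summed counts of 11.9 for shAKR1B1 (95% counting interval 4.37 to 45.5) and 7.82 for shSORD (2.78 to 30.4), and both passed (adjusted p = 2.72e-04 and 2.5e-03). SLC10A1, the bile acid uptake transporter of hepatocytes, had 0 counts in shAKR1B1 libraries, 1, 1 and 0 in shSORD libraries and 0 in control libraries, and 0 counts allow up to 0.0919 CPM in the shallowest library.

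**Figure D3:**
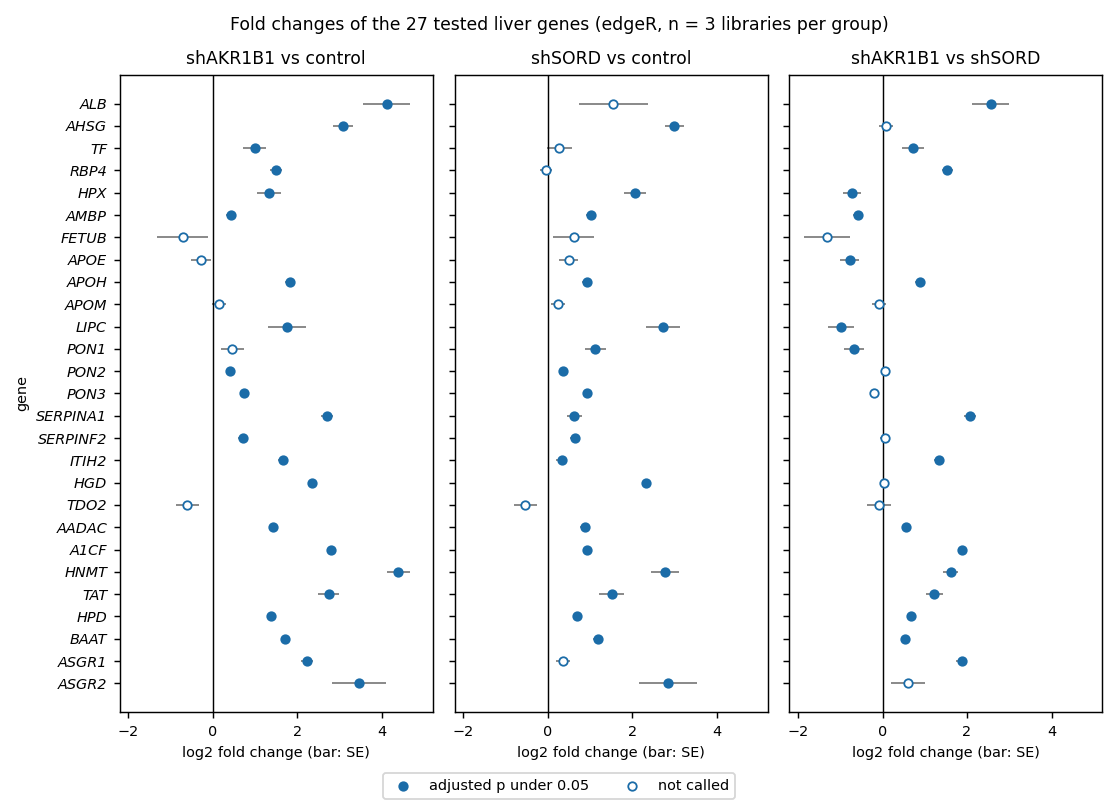
log2 fold changes (points) with SE (bars) of the 27 tested liver genes in shAKR1B1 against control, shSORD against control and shAKR1B1 against shSORD, from the edgeR fit, filled where the adjusted p was under 0.05. No filled point lies left of 0 in either comparison with control, and in shAKR1B1 against shSORD 13 filled points lie right of 0 and 5 left of it.

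The knockdowns also differed from each other. In shAKR1B1 against shSORD, 13 of the 27 were higher and 5 lower, where 15.5% of all tested genes were higher and 15.1% lower, and the median log2 fold change was 0.54. At least 2-fold higher with shAKR1B1 were ALB (2.56, adjusted p = 3.66e-04), SERPINA1 (2.07, adjusted p = 2.81e-08), A1CF (1.87, adjusted p = 1.23e-09), ASGR1 (1.87, adjusted p = 6.59e-08), HNMT (1.61, adjusted p = 9.87e-06), RBP4 (1.54, adjusted p = 6.7e-07), ITIH2 (1.33, adjusted p = 5.91e-07) and TAT (1.23, adjusted p = 3.08e-04). Lower with shAKR1B1 were LIPC (-0.97, adjusted p = 0.0247), APOE (-0.78, adjusted p = 0.0175), HPX (-0.72, adjusted p = 0.0213), PON1 (-0.67, adjusted p = 0.0472) and AMBP (-0.59, adjusted p = 1.59e-03). Of these 5, AMBP was the one call that held under every setting run. With DESeq2, HPX, LIPC and PON1 did not pass (adjusted p = 0.0522, 0.109 and 0.0777). APOE was lost without shAKR1B1 replicate 1 or 3 or shSORD replicate 2 (adjusted p = 0.0774, 0.0629 and 0.0804), and HPX without shAKR1B1 replicate 3 or shSORD replicate 1 or 2 (0.115, 0.0538 and 0.0574). LIPC was lost without any 1 of the shAKR1B1 libraries or shSORD replicate 1 or 2 (adjusted p = 0.0539 to 0.0856). PON1 was lost without any 1 library other than shSORD replicate 2 or 3 (adjusted p = 0.058 to 0.262). The difference for HGD was 0.04 with an SE of 0.0519 (adjusted p = 0.645), and that for AHSG 0.09 with an SE of 0.157 (adjusted p = 0.724). Deviations of same-numbered replicates correlated at 0.102 to 0.193 between these 2 groups, and the values above come from the fit without a block. With the replicate number as a block TF was no longer called (log2 fold change 0.72, adjusted p = 0.0599 with the block and 0.0466 without it). The TF call also ended without any 1 library other than shSORD replicate 1 (adjusted p = 0.062 to 0.145).

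Genes outside the list, in groups written with earlier results known, were counted next. Each count stands beside 27.8% higher and 29.6% lower over all genes with shAKR1B1, and 27.5% higher and 29.0% lower with shSORD, and no count is read as a result about its group. Of 13 tested genes for other liver-secreted proteins, 8 rose and 2 fell with shAKR1B1, and 8 rose and 1 fell with shSORD. VTN, for the adhesive plasma protein vitronectin, averaged 59.3 ± 1.27 CPM in shAKR1B1 libraries, 80.2 ± 10.3 CPM in shSORD libraries and 12.8 ± 0.689 CPM in control libraries (SD, n = 3 each; adjusted p = 4.93e-11 and 1.66e-11). CP, for the copper protein ceruloplasmin, averaged 358.4 ± 51.6, 176.3 ± 43.8 and 74.6 ± 2.56 CPM in shAKR1B1, shSORD and control libraries (SD, n = 3 each; adjusted p = 4.23e-09 and 2.19e-06). CPN1, a carboxypeptidase subunit, averaged 4.40 ± 0.492, 1.10 ± 0.134 and 0.347 ± 0.103 CPM in shAKR1B1, shSORD and control libraries (SD, n = 3 each; adjusted p = 1.37e-09 and 4.65e-05). AGT, for the hormone precursor angiotensinogen, averaged 6.19 ± 0.240, 3.06 ± 0.483 and 0.670 ± 0.273 CPM in shAKR1B1, shSORD and control libraries (SD, n = 3 each; adjusted p = 4.38e-09 and 6.97e-07). Of 11 tested genes of the acute phase response, its receptors and signalling genes included, 2 rose and 4 fell with shAKR1B1, and 4 rose and 4 fell with shSORD. Those that fell were IL6R, IL6ST, LIFR and STAT3 with shAKR1B1 and IL6R, LIFR, OSMR and STAT3 with shSORD. The secreted proteins' genes SAA1 and SAA2 were called in neither comparison. LBP, the lipopolysaccharide binding protein, was at 3.95 ± 0.695, 2.68 ± 0.373 and 1.18 ± 0.322 CPM in shAKR1B1, shSORD and control libraries (SD, n = 3 each; adjusted p = 2.83e-06 and 1.81e-04).

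Of 14 tested transcription factors of the liver, 10 rose and 2 fell with shAKR1B1, and 8 rose and 2 fell with shSORD. FOXA2 and NR5A2 fell with both. FOXA2 averaged 38.4 ± 2.20, 42.0 ± 2.37 and 51.3 ± 1.96 CPM in shAKR1B1, shSORD and control libraries (SD, n = 3 each, edgeR adjusted p = 7.32e-05 and 1.61e-03). NR5A2 averaged 30.7 ± 1.43, 32.9 ± 1.15 and 55.1 ± 0.233 CPM in the same order (SD, n = 3 each, edgeR adjusted p = 2.03e-08 and 1.01e-07). HNF4A averaged 94.1 ± 2.57 CPM in shAKR1B1 libraries, 86.5 ± 4.05 CPM in shSORD libraries and 34.6 ± 0.819 CPM in control libraries (SD, n = 3 each; adjusted p = 4.16e-11 and 1.72e-10). FOXA1 averaged 49.7 ± 0.536 CPM in shAKR1B1 libraries, 21.2 ± 2.15 CPM in shSORD libraries and 12.9 ± 1.01 CPM in control libraries (SD, n = 3 each; adjusted p = 7.19e-11 and 4.01e-06), and it was higher with shAKR1B1 than with shSORD (adjusted p = 2.25e-08). HNF4G, a paralogue of HNF4A, averaged 8.48 ± 0.556 CPM in shAKR1B1 libraries, 4.38 ± 0.462 CPM in shSORD libraries and 1.27 ± 0.0518 CPM in control libraries (SD, n = 3 each; adjusted p = 1.78e-10 and 4.82e-08). PPARA, a nuclear receptor that drives fatty acid oxidation, averaged 22.6 ± 1.07 CPM in shAKR1B1 libraries, 18.8 ± 2.67 CPM in shSORD libraries and 7.89 ± 0.258 CPM in control libraries (SD, n = 3 each; adjusted p = 6.16e-09 and 7.23e-08).

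**Figure D4:**
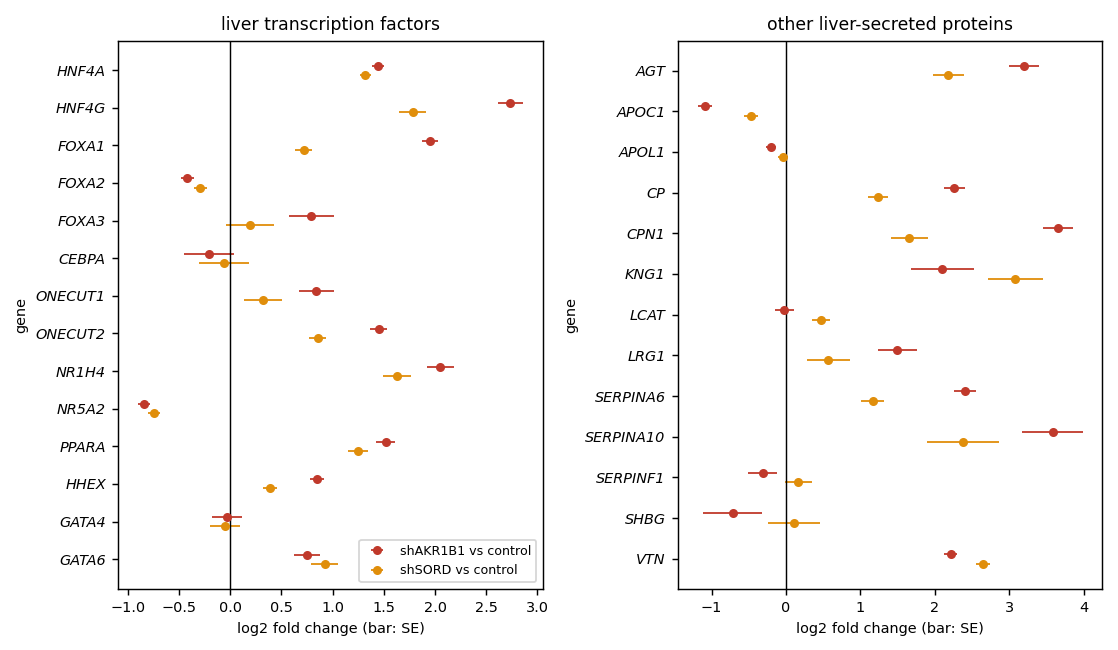
log2 fold changes (points) with SE (bars) against control of 14 liver transcription factors (left) and 13 other liver-secreted proteins (right), for shAKR1B1 and shSORD. HNF4A, HNF4G, VTN and CP lie right of 0 for both knockdowns, and FOXA2, NR5A2 and APOC1 lie left of 0.

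The pathways around single members were also counted. Of 14 tested genes of lipoprotein assembly and lipoprotein receptors, 4 rose and 5 fell with shAKR1B1, and 4 rose and 5 fell with shSORD. ABCA1, the cholesterol exporter, averaged 11.4 ± 0.804, 16.1 ± 1.07 and 30.1 ± 0.629 CPM in shAKR1B1, shSORD and control libraries (SD, n = 3 each; adjusted p = 9.5e-10 and 1.05e-07). CIDEB, a lipid droplet protein of hepatocytes, averaged 1.76 ± 0.268, 1.48 ± 0.0459 and 0.464 ± 0.154 CPM in shAKR1B1, shSORD and control libraries (SD, n = 3 each; adjusted p = 4.24e-06 and 2.53e-05).

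Of 10 tested genes of phenylalanine, tyrosine and tryptophan breakdown outside the list, 5 rose and 0 fell with shAKR1B1, and 3 rose and 3 fell with shSORD. ACMSD, which diverts tryptophan carbon from NAD synthesis, had 22, 25 and 25 counts in shAKR1B1 libraries, 4, 6 and 1 in shSORD libraries and 1, 1 and 0 in control libraries. It averaged 0.624 ± 0.0473, 0.0917 ± 0.0615 and 0.0180 ± 0.0156 CPM in shAKR1B1, shSORD and control libraries (SD, n = 3 each, edgeR adjusted p = 4.5e-06 and 0.0451). ACMSD could be tested only because shAKR1B1 libraries reached the filter, and shSORD and control libraries overlapped. Its calls are therefore a description only. In the histamine list beside HNMT, the 3 tested genes were the receptor genes HRH1 and HRH2 and the transporter gene SLC22A3. The enzyme genes HDC and AOC1 stayed below the filter. Of the 3, 0 rose and 2 fell with shAKR1B1, and 1 rose and 2 fell with shSORD. HRH2 fell with both, at 0.645 ± 0.115, 0.819 ± 0.153 and 1.71 ± 0.167 CPM in shAKR1B1, shSORD and control libraries (SD, n = 3 each, edgeR adjusted p = 3.24e-05 and 2.88e-04). Of 6 tested bile acid genes, 2 rose and 3 fell with shAKR1B1, and 3 rose and 3 fell with shSORD. ACOX2, a peroxisomal oxidase of bile acid synthesis, averaged 13.7 ± 0.975, 5.03 ± 0.221 and 20.02 ± 1.29 CPM in shAKR1B1, shSORD and control libraries (SD, n = 3 each; adjusted p = 2.88e-05 and 1.81e-10), and SLC51B, a subunit of the bile acid exporter, averaged 10.4 ± 0.676, 11.95 ± 0.408 and 5.16 ± 0.426 CPM in shAKR1B1, shSORD and control libraries (SD, n = 3 each; adjusted p = 2.85e-07 and 4.69e-08). Of 7 tested iron and haem genes, 3 rose and 3 fell with shAKR1B1, and 2 rose and 1 fell with shSORD. SLC40A1, the iron exporter ferroportin, averaged 80.5 ± 5.79, 44.1 ± 4.84 and 12.9 ± 0.447 CPM in shAKR1B1, shSORD and control libraries (SD, n = 3 each; adjusted p = 5.87e-12 and 6.08e-10). HMOX1, haem oxygenase, averaged 58.1 ± 3.29 CPM in shAKR1B1 libraries, 276.8 ± 28.1 CPM in shSORD libraries and 170.1 ± 2.93 CPM in control libraries (SD, n = 3 each). It rose with shSORD (adjusted p = 7.15e-07), and it fell with shAKR1B1 against control (adjusted p = 1.82e-10) and against shSORD (adjusted p = 1.49e-11).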

How the data were processed

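Poly(A) RNA of A549 cells (3 shAKR1B1, 3 shSORD and 3 control libraries) was sequenced from stranded TruSeq mRNA libraries. The deposited table holds raw counts per gene. Per the submitters' processing notes, cutadapt 1.9.1, STAR 2.5.2b, Subread featureCounts 1.5.1 and DESeq2 1.12.3 were used with GRCh37. Not given in the sources used here are the annotation release, the strand setting and the handling of multimapping reads, so genes with overlapping or near-identical copies are uncertain. Gene names and exon lengths came from GENCODE release 29.

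From the deposited counts, genes passing edgeR's filterByExpr (0.254 CPM in at least 3 libraries) were scaled by TMM and fitted with edgeR 4.0.16 in R 4.3.3, with 1 mean per group over all 9 libraries, the quasi-likelihood test and Benjamini-Hochberg adjustment over 16916 genes. The biological coefficient of variation was 6.59%. A gene was called at an adjusted p under 0.05, and it rose or fell only if called. Standard errors are the log2 fold change over the root of the F statistic. Counting intervals are 95% intervals of the ratio of summed counts and cover counting error only. The script was tested on simulated data.

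The members, gene lists and tests were chosen with earlier results of these data known. Values in every library are given for tested genes called with at least a 2-fold change in some comparison or averaging 20 CPM, and the other members by means, ranges or counts. For lists outside the members, at most 3 called genes with at least a 2-fold change are named per comparison, by smallest adjusted p. APOC1, FOXA2 and NR5A2 are named besides, as genes that fell, and so are some genes of the acute phase and histamine lists. PECAM1 is not analysed here, and some genes of the lists outside the members are not reported here. Deviations of same-numbered libraries from their group means correlated at 0.102, 0.193 and 0.144 between shAKR1B1 and shSORD, above 0.1 in every pair. Differently numbered libraries were not compared this way, and the labels name no pairs. The reported values come from the fit without pairs, and the replicate block is given as an alternative. Alternatives tried were DESeq2 1.42.0, 2 other scalings, no filter and a stricter filter, only the groups compared, the replicate block and leaving out each library.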

Additional observations from a re-analysis of the deposited data

How the results depend on the processing

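Over all settings and each library left out, 18 to 25 listed genes rose with shAKR1B1 and 18 to 22 with shSORD. These numbers stayed within 1.5 times the reported 22 and 19. With plain library totals 5205 of all genes rose with shAKR1B1 and 5414 with shSORD, against 4705 and 4655 in the reported fit. The fits with no filter and with the stricter filter tested other sets of listed genes. The share over all genes was not counted for every setting, so the numbers here are a description only. The number lower with shAKR1B1 than in control was 1 instead of 0 with only the 2 groups compared and with the replicate block, and 0 to 1 when 1 library was left out. The gene was TDO2. The number lower with shSORD than in control was 0 to 1 when 1 library was left out. The number lower with shAKR1B1 than with shSORD was 2 with DESeq2 and 2 to 7 when 1 library was left out, against the reported 5. RBP4 with shSORD, reported at -0.04, turned to 0.0287 with plain library totals and 0.00337 with the stricter filter, and ranged between -0.239 and 0.126 when 1 library was left out. Between the knockdowns, the same range was -0.0205 to 0.229 for AHSG, -0.219 to 0.0775 for APOM, -0.0802 to 0.124 for PON2, -0.0651 to 0.174 for SERPINF2 and -0.315 to 0.222 for TDO2. The turned values came without shSORD replicate 1 (APOM), 2 (AHSG, PON2 and RBP4) or 3 (RBP4, SERPINF2 and TDO2) and without shAKR1B1 replicate 2 (TDO2). None of these reversed values passed the test in either fit, and the cause was not tested. Same-numbered libraries did not deviate together between either knockdown and control (correlations -0.0285 to 0.0314), so there the block is only a shared number. With it 22 genes rose and 1 fell with shAKR1B1, and 20 rose and 0 fell with shSORD, APOE being added (adjusted p = 0.0343). Between the knockdowns the block gave 12 higher and 5 lower, and it changed no call there other than TF. ASGR1 with shSORD also passed with plain library totals (adjusted p = 0.0438) and the stricter filter (0.0481), and APOE with plain library totals (0.0439) and no filter (0.0137). PON3 was lower with shAKR1B1 than with shSORD with no filter (0.0472) and without shSORD replicate 2 or 3 (0.0348 and 0.0386), and ASGR2 was higher without shSORD replicate 2 (0.0445). APOM rose with shSORD without shSORD replicate 3 (0.0496), and FETUB was lower with shAKR1B1 than with shSORD without it (0.023). TF between the knockdowns was not called with DESeq2, plain library totals, no filter or only the 2 groups (0.166, 0.0537, 0.104 and 0.0791), nor was PON1 with only the 2 groups (0.0758). Depth limits the 19 listed genes below the filter, whose few counts cannot show small differences.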
